A study of Mus musculus with 8 samples.

Results

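The 9 genes described here encode subunits of the 2 fast ionotropic glutamate receptor families: 5 NMDA receptor genes (Grin1, Grin2a, Grin2b, Grin2c and Grin2d) and 4 AMPA receptor genes (Gria1 to Gria4). They were chosen by gene symbol, as 9 of the 20741 genes counted on the sense strand, and all 9 had enough reads to be tested. Their 231 exons, 143 introns and 219 splice junctions were taken by symbol from tables of 292239 exons, 176269 introns and 229190 junctions. Polyadenylated RNA of the suprachiasmatic nucleus (SCN), the circadian pacemaker of the hypothalamus, was sequenced from C57/BL6 mice that had been kept on a 12 h light and 12 h dark schedule and then moved to darkness. One strand-specific library was made every 6 h over 2 days, each from pooled RNA of 3 mice, so p-values measure the spread between pools and not between mice. Folded onto a 24-h day, the titles give circadian times (CT) with 2 libraries at each of CT4 and CT10 (subjective day) and of CT16 and CT22 (subjective night). Replicate 1 comes from the first cycle, with titles of 22 to 40 h, and replicate 2 from the second, with titles of 46 to 64 h. Pairs of values at a circadian time are given in that order. CT10 and CT16 surround dusk, and CT22 and CT4 surround dawn.

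Glutamate is the transmitter by which the retina signals light to the SCN. AMPA receptors carry the fast current at that synapse, and NMDA receptors, which open when glutamate and a co-agonist bind while the membrane is depolarised, admit the calcium that starts the resetting of the clock. An NMDA receptor holds obligatory GluN1 subunits (Grin1) together with GluN2 subunits, which set its kinetics and its block by magnesium. An AMPA receptor is built from GluA1 to GluA4 (Gria1 to Gria4), and GluA2 makes it poorly permeable to calcium.

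Each AMPA receptor gene carries a pair of neighbouring exons called flop and flip, of which a transcript normally keeps 1, and the choice alters how fast the receptor desensitises. The 8 exons, 115 bases each, are shown because reads on them give the mixture of receptor forms described below. They were read from GENCODE M21 transcripts (GRCm38), 5′ to 3′ on the strand of the gene. Capitals mark the bases at which flip and flop of the same gene differ.
Gria1 flop: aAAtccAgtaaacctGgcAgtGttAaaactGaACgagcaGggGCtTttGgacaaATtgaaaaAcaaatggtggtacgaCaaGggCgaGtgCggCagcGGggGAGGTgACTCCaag
Gria1 flip: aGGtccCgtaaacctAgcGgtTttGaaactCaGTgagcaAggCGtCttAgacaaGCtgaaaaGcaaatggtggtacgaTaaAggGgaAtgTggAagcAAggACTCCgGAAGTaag
Gria2 flop: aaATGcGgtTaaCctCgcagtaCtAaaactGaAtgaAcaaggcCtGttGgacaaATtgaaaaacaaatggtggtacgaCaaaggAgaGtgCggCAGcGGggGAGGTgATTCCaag
Gria2 flip: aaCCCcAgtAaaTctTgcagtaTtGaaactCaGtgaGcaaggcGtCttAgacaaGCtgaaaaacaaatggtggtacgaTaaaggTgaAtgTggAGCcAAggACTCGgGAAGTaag
Gria3 flop: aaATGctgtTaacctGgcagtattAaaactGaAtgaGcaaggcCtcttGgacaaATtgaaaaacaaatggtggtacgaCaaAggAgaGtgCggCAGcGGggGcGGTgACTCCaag
Gria3 flip: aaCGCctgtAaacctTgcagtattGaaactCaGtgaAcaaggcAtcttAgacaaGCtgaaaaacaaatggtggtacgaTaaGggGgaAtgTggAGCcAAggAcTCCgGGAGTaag
Gria4 flop: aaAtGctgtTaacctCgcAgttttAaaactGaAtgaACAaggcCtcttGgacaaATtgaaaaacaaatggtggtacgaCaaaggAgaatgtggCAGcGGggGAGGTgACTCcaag
Gria4 flip: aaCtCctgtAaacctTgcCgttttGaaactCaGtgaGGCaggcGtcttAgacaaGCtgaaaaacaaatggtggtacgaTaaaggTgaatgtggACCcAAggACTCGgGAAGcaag

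Flip and flop of 1 gene differed at 36 of 115 bases in Gria1 and in Gria2, at 32 in Gria3 and at 31 in Gria4. Exons of the same kind were closer across genes, with 9 to 14 differences among flip exons and 6 to 14 among flop exons. At 22 positions flip and flop differed in all 4 genes, and 69 positions held the same base in all 8 exons. On mm9, the build of the counts, flop and flip lie at chr11:57123271-57123385 and chr11:57124110-57124224 in Gria1 and at chr3:80495242-80495356 and chr3:80494326-80494440 in Gria2. They lie at chrX:39007987-39008101 and chrX:39022678-39022792 in Gria3, and at chr9:4432773-4432887 and chr9:4427030-4427144 in Gria4.

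Grin1 has 2 cassette exons whose inclusion changes the GluN1 protein. N1 (63 bases, mm9 chr2:25166863-25166925) adds a stretch to the extracellular domain that alters the response to protons, and C1 (111 bases, chr2:25149958-25150068) adds one to the cytoplasmic tail that carries an endoplasmic reticulum retention signal. Both are read from the same transcripts and have no capitals, since no pair is compared.
Grin1 N1: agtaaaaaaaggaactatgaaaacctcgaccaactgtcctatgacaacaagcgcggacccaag
Grin1 C1: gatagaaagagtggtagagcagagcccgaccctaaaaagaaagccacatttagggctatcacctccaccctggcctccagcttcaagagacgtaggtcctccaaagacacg

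Each library held 11123610 to 11131890 sense reads over genes, 4196931 to 4199146 over introns, 25232810 to 25232813 over exons and 3196136 to 3437120 over junctions. Column totals of the gene, intron and exon tables were therefore nearly equal, so differences in depth had been removed before deposit. All 11 markers of SCN neurons fixed as a list were detected, with summed levels of 778 to 911 CPM (counts scaled to a common effective library size) at dusk and 1011 to 1413 CPM at dawn. Markers of oligodendrocytes, the myelin-forming cells of nearby tracts, ran the other way, with summed levels of 8211 to 15983 CPM at dusk and 5112 to 10548 CPM at dawn. General neuronal markers summed to 2614 to 3457 CPM and markers of telencephalic neurons to 64.6 to 103.9 CPM over the 8 libraries. In such tissue, fewer cells of a type and less RNA per cell cannot be told apart.

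Ranked by level, as CPM per kilobase (kb) of annotated exon, the AMPA receptor genes Gria1 and Gria2 led, and the NMDA receptor genes Grin2b and Grin2a were close to absent. Gria1 (mm9 chr11:56824879-57144026) averaged 94.2 ± 9.92 (SD over 8 libraries), from 77.3 to 110.3. Gria2 (chr3:80488481-80606762) averaged 44.7 ± 6.87, and no Gria2 value reached the lowest Gria1 value. Gria4 (chr9:4417658-4796273) averaged 27.7 ± 2.31 and lay below Gria2 in 8 of 8 libraries, although the ranges of these 2 genes overlapped. Grin1 (chr2:25146571-25174762) averaged 21.6 ± 2.17 and lay below Gria4 in 7 of 8 libraries, and the ranges of these 2 neighbours overlapped. Their order turned with the length taken, as given below. Gria3 (chrX:38753991-39032004), the X-linked subunit, followed at 11.2 ± 1.10, below Grin1 in every library. Grin2c (chr11:115110330-115128582) averaged 8.03 ± 1.68, below Gria3 in 7 of 8 libraries. Grin2d (chr7:53087033-53126312) averaged 4.36 ± 0.956, below Grin2c in every library.

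**Figure D1:**
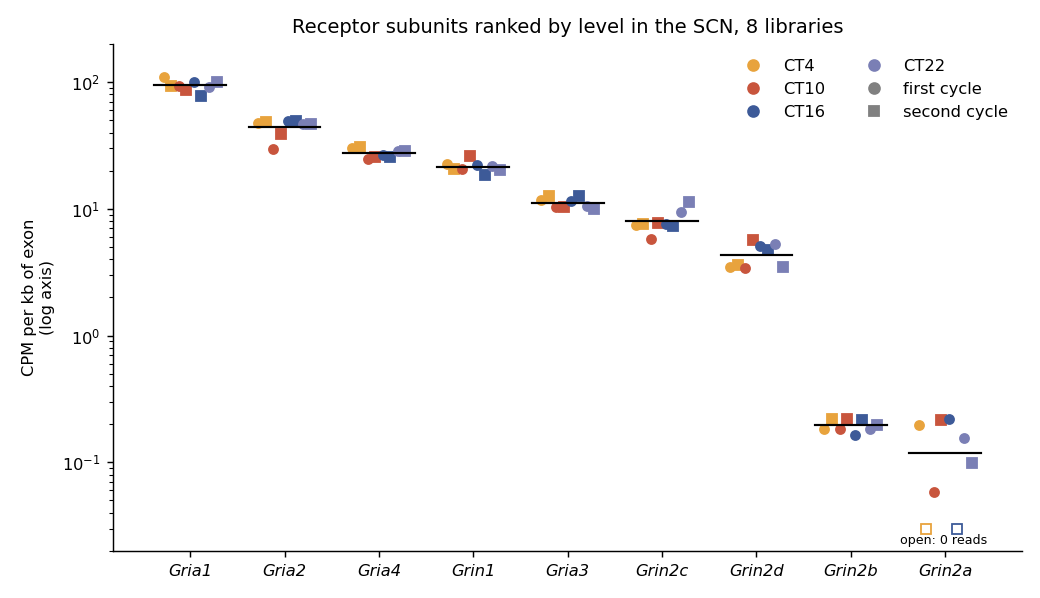
Level of each receptor subunit gene in the 8 SCN libraries, as CPM per kb of exon on a log axis, with colours for circadian time, shapes for the cycle and a bar for the mean. Gria1 lies above all others at 77.3 to 110.3, and Grin2b and Grin2a reach at most 0.219; open squares mark libraries with 0 reads.

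Grin2b (chr6:135679432-136123532) stood 22.2-fold below Grin2d, at 0.196 ± 0.0209, with 14 to 19 reads in each library and 136 in all. Grin2a (chr16:9577612-9995023) had 10 and 0 reads at CT4, 3 and 11 at CT10, 11 and 0 at CT16, and 8 and 5 at CT22. Its 48 reads came to a level of 0.118 ± 0.0917, and the 2 libraries without reads allow up to 0.270 and 0.268 CPM at 3 counts. Grin2b lay above Grin2a in 6 of 8 libraries, so their order is not separated from their spread. GluN2A and GluN2B are the main GluN2 subunits of the adult forebrain. Intron reads of both genes outnumbered their gene reads, at 524 for Grin2b and 168 for Grin2a, over introns that span 400319 and 361978 bases, although the gene and intron tables were scaled separately.

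The order depended on the length taken. Per coding length, Grin1, at 80.5 CPM per kb, stood above Gria4, at 68.2. By the median exon of each gene, Grin1 came first at 112.3, ahead of Gria1 at 105.4, Gria2 at 43.7 and Gria4 at 25.8, and Grin2c (18.2) and Grin2d (12.2) stood above Gria3 (7.40). Grin2a (0.143) and Grin2b, with a median exon at 0, came last there. The annotated exons of Grin1 cover 10497 bases, against a coding length of 2814, and include long exons that run through introns. The last exon held 78.2% of the summed exon reads in Gria3, 74.8% in Gria2, 57.6% in Gria1 and 52.2% in Gria4, against 27.6% in Grin2d, 26.7% in Grin2c and 8.56% in Grin1. By each of these measures Gria1 and Gria2 stood above Gria4 and Gria3, and Grin2c above Grin2d.

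Among AMPA receptor reads per length, Gria1 made up 53.0 ± 3.56%, Gria2 25.1 ± 3.14%, Gria4 15.6 ± 0.713% and Gria3 6.32 ± 0.691% (SD, 8 libraries). The Gria2 share was lowest, 18.9%, in replicate 1 of CT10 and highest, 30.0%, in replicate 2 of CT16. By the median exon the shares were 57.4% for Gria1, 24.1% for Gria2, 14.4% for Gria4 and 4.09% for Gria3. Per coding length Gria1 took 42.8% and Gria2 35.8%. Among the GluN2 genes, Grin2c made up 63.1 ± 6.13%, Grin2d 34.5 ± 5.91%, and Grin2a and Grin2b together 2.48 ± 0.598%. GluN2C and GluN2D form receptors with weaker magnesium block than GluN2A and GluN2B. The level of Grin1 was 1.73 ± 0.290 times the summed level of the GluN2 genes, and 3.77 ± 0.664 times by the median exon. Summed AMPA receptor levels were 5.22 ± 0.579 times summed NMDA receptor levels per exon length, but 1.29 ± 0.241 times by the median exon.

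Across circadian time, none of the 9 subunit genes passed the 24-h test at an adjusted p of 0.05 by edgeR, where 0.112% of all 15217 genes tested did. The test asked for a 24-h cosine of any phase. At an unadjusted p under 0.05 edgeR gave 1 of 9 subunits, Grin2c, against 8.6% of all genes, and DESeq2 called none of the 9 after adjustment. The median fitted peak-to-trough difference was 0.22 on the log2 scale over the subunits and 0.29 over all genes. In the authors' deposited table, the adjusted p of their JTK rhythm test was 0.435 for Grin2c, 0.715 for Gria1 and Gria4, and 1 for the other 6 genes.

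Grin2c was highest at CT22 in both cycles. Its reads came to 40.5 and 40.7 CPM at CT4, 31.2 and 41.6 CPM at CT10, 40.7 and 39.4 CPM at CT16, and 51.1 and 61.3 CPM at CT22. Both CT22 libraries lay above the other 6, which spanned 31.2 to 41.6 CPM. How many of all genes have 1 time apart from the rest in this way was not counted. The fitted peak-to-trough difference was 0.63 ± 0.17 (SE) on the log2 scale with a peak at CT22.1, and the adjusted p was 0.385 by edgeR. With no filter on low counts the adjusted p of Grin2c was 0.0363, in an edgeR fit that called 362 genes. With the oligodendrocyte score of each library as a term the difference was 0.68 (edgeR adjusted p 0.421), and without replicate 2 of CT22 it was 0.46.

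**Figure D2:**
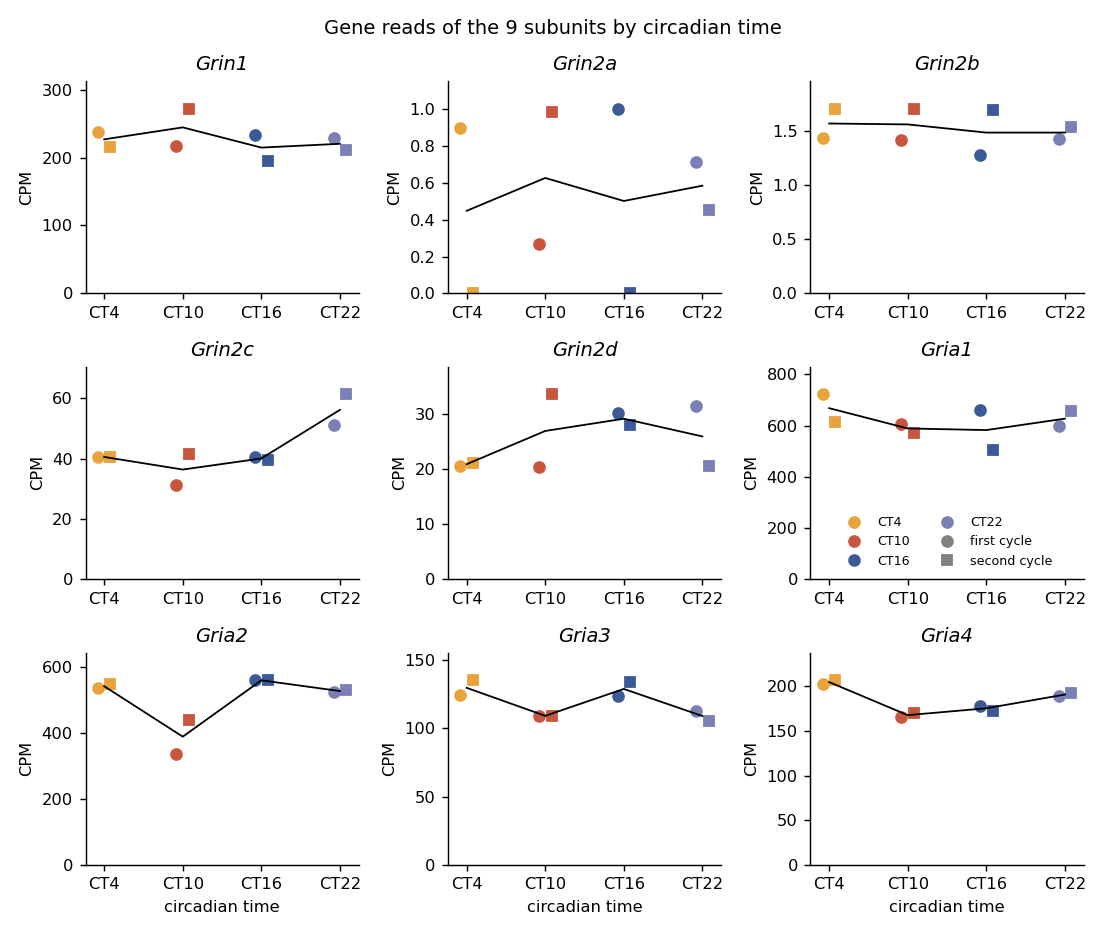
Gene reads of the 9 subunits as CPM against circadian time, 1 panel per gene, with circles for the first cycle, squares for the second and a line through the mean of each time. Grin2c is highest in both CT22 libraries (51.1 and 61.3 CPM), Gria2 lowest in both CT10 libraries (337 and 441 CPM), and Gria4 lower in the 4 dusk libraries than in the 4 dawn libraries.

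Gria4 was lower at dusk than at dawn in every library, without passing the adjusted threshold. It had 166 and 170 CPM at CT10 and 178 and 172 CPM at CT16, against 189 and 192 CPM at CT22 and 203 and 207 CPM at CT4. The log2 difference of dusk minus dawn was −0.20 ± 0.08 (SE; 95% interval −0.37 to −0.04), with an edgeR p of 0.0174 and an adjusted p of 0.555. Dusk and dawn libraries did not overlap for 1 of 9 subunits, as for 3.61% of all genes. The oligodendrocyte and SCN marker sums given above differ between the same libraries. With the oligodendrocyte score as a term the Gria4 difference was −0.16 (edgeR adjusted p 0.995).

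Gria2 was lowest at CT10 in both cycles, at 337 and 441 CPM, and the other 6 libraries lay between 525 and 561 CPM. The share of all genes with such a separation of 1 time was not counted. The value of 337 CPM belongs to replicate 1 of CT10, a library that stands apart in the antisense table. In that library antisense reads of the 5 best-covered subunits (Grin1, Gria1, Gria2, Gria3 and Gria4) came to 0.136% of their sense reads in the separately scaled sense table, against 0.547% to 0.736% in the other 7. The fitted 24-h difference of Gria2 was 0.44 ± 0.16 (SE) on the log2 scale, with an edgeR adjusted p of 0.595, and 0.18 without that library. Without it, the difference of Grin2c was 0.54 and the dusk minus dawn difference of Gria4 was −0.19.

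The other well-read subunits moved little or without agreement between the cycles. Gria1 had 722 and 615 CPM at CT4, 607 and 570 CPM at CT10, 659 and 506 CPM at CT16, and 596 and 658 CPM at CT22, and every time overlapped another. Its 24-h difference was 0.22 ± 0.14 (SE) on the log2 scale, with an edgeR adjusted p of 0.775. Grin1 was highest in replicate 2 of CT10, at 272 CPM, and lay between 196 and 238 CPM elsewhere. Grin2d had 20.3 and 33.5 CPM at CT10 and 31.3 and 20.4 CPM at CT22, so the second cycle was higher at CT10 and lower at CT22. Its fitted difference of 0.48 ± 0.23 (SE) had an edgeR adjusted p of 0.702. Gria3 had 124 and 135 CPM at CT4 and 123 and 134 CPM at CT16, against 109 and 109 CPM at CT10 and 112 and 105 CPM at CT22. Those 2 pairs of times lie 12 h apart, which a 24-h cosine cannot follow, and its fitted 24-h difference was 0.01 ± 0.14 (SE). For Gria3 the 95% interval of day minus night ran from −0.21 to 0.22 on the log2 scale, and that of dusk minus dawn from −0.22 to 0.21.

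Day and night separated none of the 9 subunits. No subunit passed day against night at an adjusted p of 0.05 by edgeR (0.105% of all genes) or by DESeq2, and 1 of 9, Grin2c, had an unadjusted p under 0.05 (7.72% of all genes). For Grin2c the log2 difference of day minus night was −0.31 ± 0.12 (SE; edgeR adjusted p 0.534). Dusk against dawn likewise gave 0 of 9 by edgeR after adjustment (0.0197% of all genes) and by DESeq2, and 2 of 9, Grin2c and Gria4, before it (7.84% of all genes). Between the second and the first cycle, 0 of 9 passed by edgeR (0% of all genes) or DESeq2, and 0 of 9 had an unadjusted p under 0.05 (3.57% of all genes). Libraries of the 2 cycles did not overlap for 1 of 9, the sparsely read Grin2b (1.86% of all genes), and those of day and night overlapped for all 9 (4.65% of all genes did not). Intervals were narrow for the well-read genes and wide for the rare ones: day minus night ran from −0.14 to 0.18 for Gria4, but from −1.92 to 1.88 for Grin2a and from −0.77 to 0.92 for Grin2b.

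**Figure D3:**
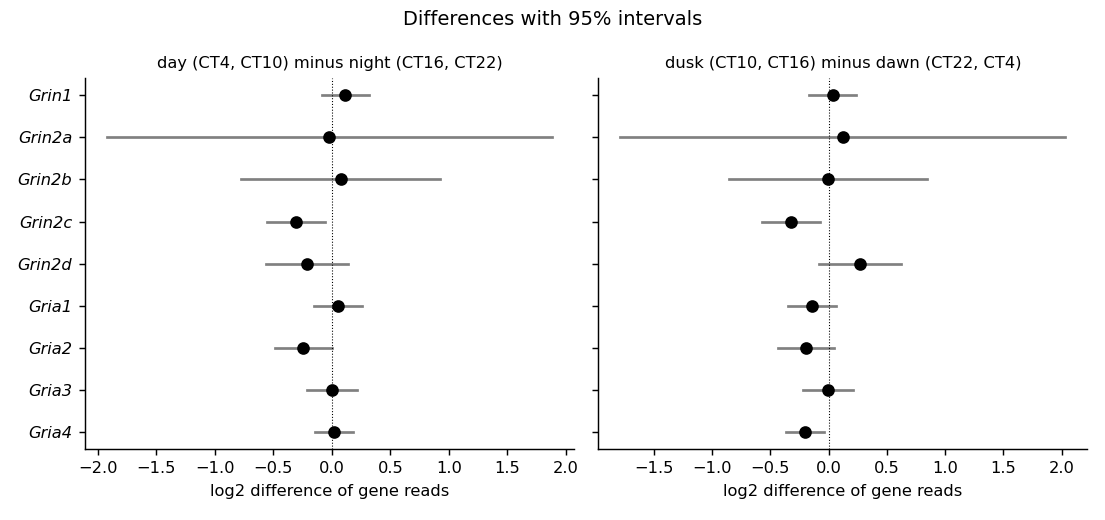
Log2 difference of gene reads for each subunit, day minus night (left) and dusk minus dawn (right), with 95% intervals from edgeR and a dotted line at 0. The intervals of Grin2c lie below 0 in both panels and that of Gria4 below 0 for dusk minus dawn, before any adjustment for the number of genes.

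The flip and flop exons gave each AMPA receptor gene its own mixture. Gria3 was mostly flip, with 285 flip and 31 flop reads over all libraries, a flip share of 90.2% (exact binomial 95% interval 86.4 to 93.2%). Gria1 and Gria2 were close to equal in exon reads, with flip shares of 51.2% (49.3 to 53.2%; 1281 flip and 1219 flop reads) and 49.1% (46.3 to 52%; 577 and 597 reads). Gria4 leaned to flop, with a flip share of 37.0% (31.4 to 42.9%; 107 and 182 reads). Reads across the junctions of the same exons gave 90.9% for Gria3, 52.9% for Gria1, 49.3% for Gria2 and 34.8% for Gria4. The sides of the exon differed: the flip share was 46.1% on entry and 60.8% on exit in Gria1, 40.9% and 54.8% in Gria2, 84.7% and 95% in Gria3, and 37.1% and 33.3% in Gria4. Such intervals cover counting error only, since the reads carry no molecular identifiers.

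Over single libraries the flip share of Gria1 was 37.3% and 51.2% at CT4, 54.9% and 59.8% at CT10, 47.5% and 53.8% at CT16, and 52.1% and 60.2% at CT22. Replicate 2 was higher than replicate 1 at each of the 4 times, and day and night overlapped, as did dusk and dawn. In Gria2 the share ran from 41.1% to 56.8%, again higher in replicate 2 at each time (by junction reads at 3 of 4 times), with 46.6% and 51.7% at CT4, 41.1% and 51.1% at CT10, 42.3% and 56.8% at CT16, and 47.1% and 56.2% at CT22. In Gria4 the share was lower in replicate 2 at each time, with 54.3% and 18.6% at CT4, 33.3% and 25.0% at CT10, 52.8% and 39.1% at CT16, and 45.2% and 31.9% at CT22. Shares of Gria3 (81.6% to 98.1%) were higher in replicate 2 at 2 of 4 times. Those of Gria3 and Gria4 rest on 20 to 52 reads per library, and no group of times separated in either.

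**Figure D4:**
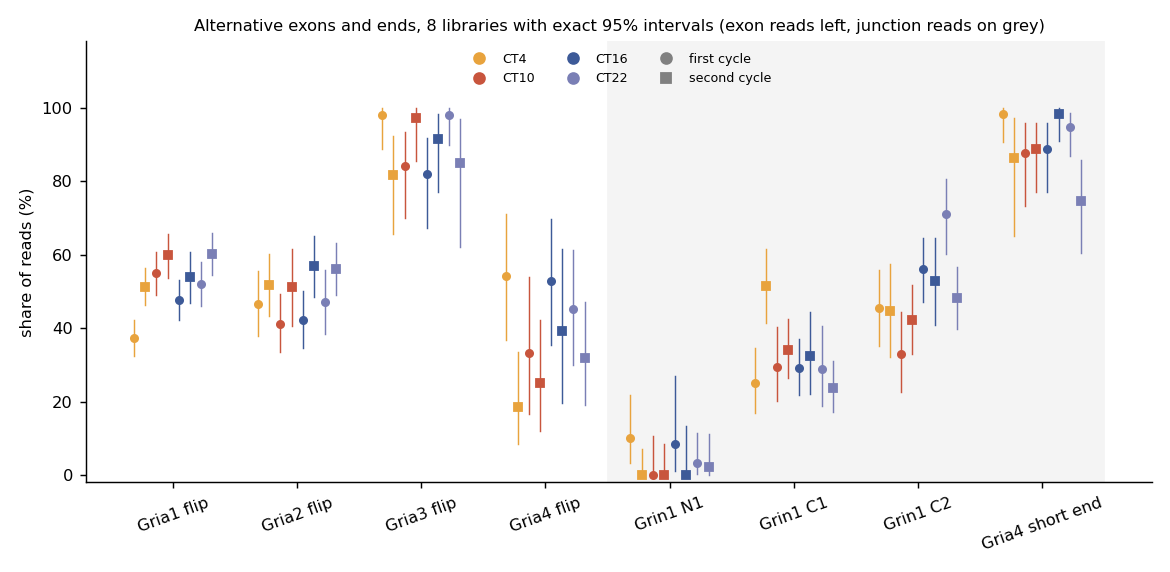
Share of reads (%) that used the named exon or end in each of the 8 libraries, with exact 95% intervals; exon reads are on the white ground and junction reads on grey, colours give circadian time and shapes the cycle. Gria3 flip lies at 81.6% to 98.1% and Grin1 N1 at 0% to 10%, and for Grin1 C2 the day libraries (32.9% to 45.4%) lie below the night libraries (48.3% to 71.1%).

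GluN1 messages mostly lacked N1. Of 333 junction reads from the exon before it, 10 went into N1, a share of 3.0% (exact 95% interval 1.45 to 5.45%), and on its far side 2 reads left N1, a share of 0.615%. In 4 of 8 libraries no read entered N1, and there the upper limits of the exact intervals were 7.11% to 13.2%. C1 was included in 278 and skipped in 611 junction reads, a share of 31.3% (28.2 to 34.4%), with libraries from 23.6% to 51.5%. Counted on its far side the C1 share was 22.6%. The highest value, 51.5%, came from replicate 2 of CT4, which gave 24.6% on the far side.

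The last exon of Grin1 is entered at 1 of 2 acceptor sites that lie 356 bases apart and give the tail ends C2 and C2 prime; C2 prime carries a motif that binds synaptic scaffold proteins. Over all libraries 389 reads entered C2 and 400 entered C2 prime, a C2 share of 49.3% (45.8 to 52.9%). In day libraries the C2 share was 45.4% and 44.6% at CT4 and 32.9% and 42.1% at CT10, and in night libraries it was 56.0% and 52.7% at CT16 and 71.1% and 48.3% at CT22. Every day library lay below every night library, and pooled shares were 41.4% by day and 55.8% by night. Among reads that skipped C1 the C2 share was 31.3% by day and 45.9% by night, again without overlap. After C1, C2 was used more often, in 84.3% of 178 reads, and there day and night overlapped. Such shares were not tested, and no count over all splice events was made. In the edgeR fits over all features, the junction that enters C2 without C1 had a day minus night difference of −0.76 (p 0.0463, adjusted p 0.9998) and the one after C1 −0.67 (p 0.114). The junction that enters C2 prime without C1 had a day minus night difference of 0.12 (edgeR p 0.717). The exon piece that only C2 uses, chr2:25147744-25148004, had a relative difference of −0.43 (edgeR p 0.0386, adjusted p 1). That value comes from the set with the shortest of overlapping exons kept, where 6 of 109 subunit exons had an edgeR p under 0.05. Of the 8 events followed (4 flip shares, N1, C1, C2 and the short end of Gria4), C2 was the 1 event with separated day and night libraries, and none separated dusk from dawn.

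Gria4 has an earlier annotated end, in a terminal exon that leaves out the exons further downstream, flip and flop included. Junction reads into the short terminal exon numbered 369 and those into the next full-length exon 39, a share of 90.4% for the short end (exact 95% interval 87.2 to 93.1%). The short terminal exon (649 bases, chr9:4478204-4478852) had 42.9 ± 5.28 CPM per kb and the last exon (2666 bases, chr9:4417651-4420316) 43.5 ± 4.65 (SD, 8 libraries). The 10 exons before the branch had a median of 45.5 and the 7 between the branch and the last exon a median of 10.5. The junction counts and the levels of the middle exons both set the full-length form below the short one, whereas the last exon did not.

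Counts of the first Gria1 exon and of its junction to exon 2 separated dusk from dawn, while those of the last exon did not. Exon 3 overlapped, with 209 and 219 reads at CT4 and 218 and 156 at CT10. The junction of exon 2 to exon 3 had a dusk minus dawn difference of −0.16 (edgeR p 0.607). The test of relative exon use within the gene passed no threshold (edgeR, Simes p 0.723 over 9 exons without overlap and 0.673 over 17 with the shortest kept). Those 9 exons leave out the first and the last, and the 17 hold only pieces of them (chr11:56825576-56825617 and chr11:57140945-57141246). The test could therefore not compare these ends in full. The junction of Gria1 exon 1 to exon 2 (chr11:56825618-56828655) had the lowest p of the 95 subunit junctions tested. It had 34 and 43 reads at CT10 and 38 and 36 at CT16, against 113 and 81 at CT22 and 89 and 89 at CT4. All 4 dusk libraries lay below all 4 dawn libraries, as for 2.11% of 78212 junctions, and mean reads were 37.8 at dusk and 93 at dawn. The peak-to-trough difference was 1.84 ± 0.35 (SE) on the log2 scale, with an edgeR p of 4.84e-05 and an adjusted p of 0.131, which does not pass. Leaving out each library in turn gave adjusted p-values of 0.100 to 0.604 for this junction by edgeR. None of the 95 subunit junctions passed after adjustment (0.0179% of all junctions), and 12 of 95 had an unadjusted p under 0.05 (5% of all junctions).

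The remaining Gria1 counts by position were looked at after that junction's values were seen, so they are a description. The first exon (chr11:56825013-56825617) had 158 and 157 reads at CT10 and 157 and 114 at CT16, against 311 and 252 at CT22 and 227 and 268 at CT4. Summed over all exons before the last, Gria1 had 282 and 251 CPM at CT10 and 317 and 197 CPM at CT16, against 346 and 343 CPM at CT22 and 381 and 354 CPM at CT4. Neither overlapped between dusk and dawn, with dusk to dawn ratios of 0.553 for the first exon and 0.735 for the exons before the last. Dusk lay below dawn without overlap in 2.26% of 109507 exons and, for reads upstream of the last exon, in 2.93% of 11102 genes. The last exon, which holds most Gria1 reads, averaged 419 CPM at dusk and 420 CPM at dawn and overlapped. Fitted over all genes on reads upstream of the last exon, with the shortest of overlapping exons kept, Gria1 had a dusk minus dawn difference of −0.43 ± 0.12 (SE), with an edgeR adjusted p of 0.260 (0.027% of 11102 genes passed; 0.0721% in the 24-h test). On last exons the same difference was −0.00329 (edgeR adjusted p 0.994; 0.0284% of 10560 genes passed). The ratio of upstream to last-exon reads over 6207 genes was shifted by 0.13 on the log2 scale in replicate 1 of CT22, and by −0.05 to 0.01 in the other 7 libraries; without that library the junction difference was 1.68.

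**Figure D5:**
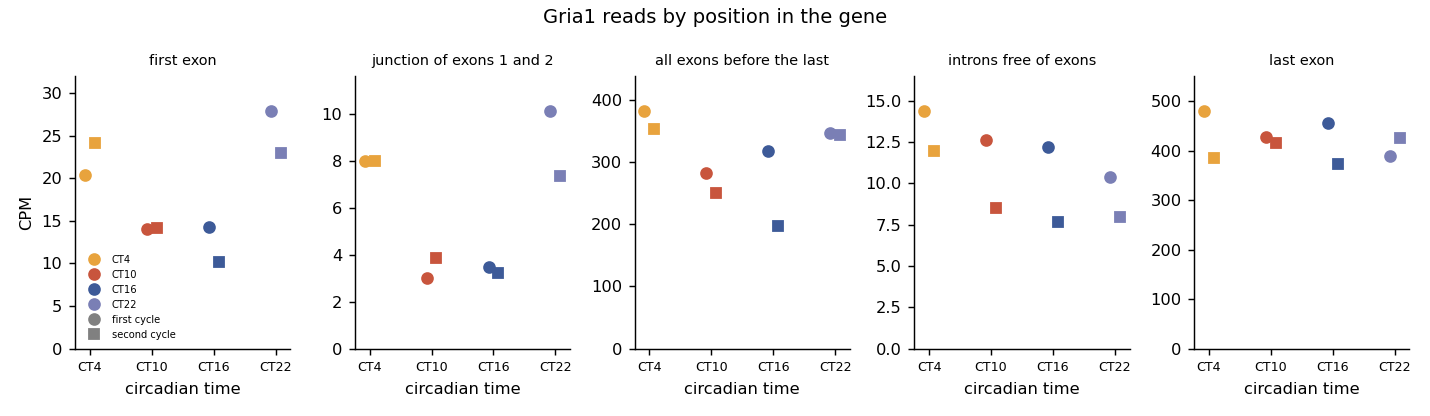
Reads of Gria1 as CPM at 5 positions in the gene against circadian time, with circles for the first cycle and squares for the second. In the first exon, at the junction of exons 1 and 2 and in the sum of all exons before the last, the CT10 and CT16 libraries lie below those of CT22 and CT4. Introns free of exons and the last exon overlap.

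Gria2 did not show such a contrast of dusk and dawn between its parts. Its dusk minus dawn difference was −0.15 ± 0.11 (SE) upstream of the last exon and −0.19 ± 0.12 on the last exon. On reads upstream of the last exon its day minus night difference was −0.44 ± 0.11 (SE), with an edgeR p of 0.000633 and an adjusted p of 0.370, and on the last exon −0.22 ± 0.12 (edgeR adjusted p 0.678). Grin1 had a dusk minus dawn difference of 0.45 ± 0.14 on the last exon (edgeR p 0.00493, adjusted p 0.373) and of 0.0086 ± 0.10 upstream of it. Grin2d had 0.44 ± 0.17 upstream (edgeR p 0.0177, adjusted p 0.478) and −0.07 ± 0.22 on the last exon. The dusk minus dawn differences of Grin1 last-exon reads and Grin2d upstream reads were positive, opposite in sign to that of Gria1 upstream reads. Relative to the last exon, upstream reads of Grin1 were lower at dusk, as in Gria1, and those of Grin2d were higher. No difference between the parts of a gene was itself tested in these fits. The second named junction was in Gria2, from flip to the next exon (chr3:80493274-80494325). It had 32 and 29 reads at CT4 and 31 and 40 at CT10, against 45 and 82 at CT16 and 55 and 80 at CT22, and the day libraries all lay below the night libraries, as for 1.77% of all junctions. Its log2 difference of day minus night was −1.0 ± 0.29 (SE), and its 24-h test had an edgeR adjusted p of 0.802.

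Reads assigned to introns gave no subunit past the adjusted threshold by edgeR (0.277% of 12275 genes). At an unadjusted p under 0.05 there were 5 of 9 subunits (10.6% of all genes): Gria1, Grin2b, Grin2c, Grin1 and Gria2. Part of these reads lay in introns that overlap an annotated exon of the same gene: introns free of exons held 19.9% of the intron reads of Gria1, 31.8% of those of Grin2c and 45.7% of those of Grin2d. An intron of 580 bases at chr11:56824996-56825575, which overlaps the first exon of Gria1, held 1389 of the 4803 Gria1 intron reads. With introns that overlap no exon, an alternative chosen after the values were seen, 1 of 9 subunits had an unadjusted p under 0.05 (9.19% of 11039 genes) and none passed (0.19%). That 1 gene was Grin2b, with a difference of 1.08 ± 0.36 (SE; edgeR p 0.0195, adjusted p 0.453). The dusk minus dawn difference of Gria1 introns was −0.46 ± 0.12 (SE) over all introns kept and −0.11 ± 0.19 over those free of exons. Those held 142 and 95 reads at CT10 and 134 and 86 at CT16, against 116 and 88 at CT22 and 160 and 133 at CT4, and the groups overlapped.

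Introns beside the alternative exons were more densely read than the other exon-free introns of the same gene as a whole. In Gria2, the 2 exon-free introns between flop and the exon after flip make up 4.25% of exon-free intron bases and held 59.7% of the reads, a density 33.4 times that of the other introns (28.3 to 38.3 over libraries). The densest exon-free intron of Gria2 was another one, chr3:80492637-80493024, with 36.8 CPM per kb and 1271 of the 1452 reads outside that pair, against 18.7 and 5.59 CPM per kb in the pair. The intron after flip was 105 times as dense as the others in Gria3 (51.4 to 194) and 21.8 times in Gria1 (16.3 to 47.7). In Gria4 the ratio was 7.25 (5.49 to 11.4), but there too the densest exon-free intron was another one, chr9:4478853-4480177. It had 5.11 CPM per kb and 602 of the 1227 reads outside the pair, against 1.11 and 0.220 CPM per kb in the pair. Around C1 of Grin1, 2 introns held 89.6% of exon-free intron reads in 43.9% of the bases, 11 times the density of the others (9.17 to 19.6). They had 25.4 and 13.5 CPM per kb, and another Grin1 intron, chr2:25153473-25153705, had 17.6. Across these separately scaled tables, exon level over the level of exon-free introns was 832 for Gria1, 444 for Gria4, 335 for Gria3 and 48.1 for Gria2, against 12.5 for Grin2d, 5.22 for Grin2c and 2.12 for Grin1. These ratios depend on the exon length taken. They use merged exons, with levels of 21.6 CPM per kb for Grin1 and 11.2 for Gria3, against 112.3 and 7.40 by the median exon.

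Relative use of single exons within a gene did not pass either. Of 63 subunit exons that overlap no other exon, 0 passed after adjustment by the exon-level test of edgeR for day against night (0% of 66356 exons) and 1 had an unadjusted p under 0.05 (2.48%). For dusk against dawn 0 of 63 passed (0%), and 1 had an unadjusted p under 0.05 (3.14%). With the shortest of overlapping exons kept, 0 of 109 subunit exons passed for day against night (0% of 107438 exons) or dusk against dawn (0.000931%). Before adjustment 6 and 2 of them had an edgeR p under 0.05, a share not counted over all exons. The lowest p of that set belonged to a Gria3 exon, chrX:38831737-38831848. Its relative log2 difference of day minus night was −1.86 (edgeR p 0.00231), with 0 and 0 reads at CT4. Exon 3 of Grin2d (chr7:53113820-53113934) had 2 and 0 reads at CT4 and 8 and 15 at CT10, against 14 and 14 at CT16 and 15 and 20 at CT22, a relative log2 difference of day minus night of −1.03 (edgeR p 0.0233). The Grin2c exon at chr11:115119087-115119685 had 10 and 13 reads at CT10 and 24 and 26 at CT16, against 67 and 24 at CT22 and 18 and 31 at CT4. Its relative difference of dusk minus dawn was −0.52 (edgeR p 0.0498), with 1 of the CT22 libraries far above the rest. Of the 4 subunits with enough antisense reads (Grin1, Gria1, Gria2 and Gria4), 0 passed the 24-h test by edgeR (0% of 3693 genes) and 0 had an unadjusted p under 0.05 (3.47%).

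Genes that act with these receptors gave 0 calls after adjustment in each of 7 lists by edgeR, where 0.112% of all genes were called; an unadjusted p under 0.05, counted below, was reached by 8.6% of all genes. None of 8 tested genes for other ionotropic glutamate receptor subunits had an unadjusted p under 0.05; the kainate receptor subunits Grik1 and Grik2 had edgeR p-values of 0.171 and 0.204. Of 7 metabotropic receptors 1 did, Grm3, with a difference of 0.58 ± 0.18 (SE) and a peak at CT18.2 (edgeR adjusted p 0.504). Of 14 auxiliary subunits 2 did: Cacng4, which aids AMPA receptor traffic (0.42 ± 0.12, peak CT12.8), and Shisa7 (0.36 ± 0.13, peak CT19.8). Of 19 scaffold and trafficking genes 7 did. For scale, 11 of 12 oligodendrocyte markers and 9 of 11 SCN markers did in the same test. Among the scaffold and trafficking genes, Dlg2, encoding the scaffold PSD-93, had a difference of 0.53 ± 0.13 (SE) with a peak at CT1.04. Its edgeR adjusted p was 0.375. Dlgap1 had 0.43 ± 0.12 with a peak at CT2.97, and Shank2 had 0.49 ± 0.13 with a peak at CT20.7 (edgeR adjusted p 0.408 for both). Of 12 kinases and phosphatases 1 did, Prkca (0.46 ± 0.14, peak CT21.4). None did of 11 transporter and glutamate metabolism genes or of 3 RNA editing enzymes. The transport gene with the lowest p was the glutamine synthetase Glul (edgeR p 0.0578). Adarb1, which edits the Gria2 message, had an edgeR adjusted p of 0.768.

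Among 10446 other genes, the 5 whose profiles over the 8 libraries were most like the mean subunit profile were Spred2, 1810041L15Rik, Cdk5r1, Dusp8 and Wdr37. Pearson's r was 0.970 for Spred2, 0.960 for 1810041L15Rik, 0.929 for Cdk5r1, 0.915 for Dusp8 and 0.908 for Wdr37, as the highest values of a search over so many genes in libraries that share their depth. The mean subunit profile itself spanned −0.24 (replicate 1 of CT10) to 0.15 (replicate 1 of CT16) on the log2 scale. It rests to a large degree on the few reads of Grin2a. The profile lay below 0 only in replicate 2 of CT4, replicate 1 of CT10 and replicate 2 of CT16, where Grin2a had 0, 3 and 0 reads. Likeness to this profile, and the r of Grin1 with Grin2a below, are thus not separated from counting error of Grin2a. Within the family, the closest pairs were Grin1 with Grin2a (r 0.768), Gria2 with Gria4 (0.606), Gria1 with Gria4 (0.569), Gria3 with Gria2 (0.566) and Grin2c with Gria2 (0.549). Spearman's rho was 0.838, 0.405, 0.571, 0.714 and −0.14 for these pairs in turn, so the last had the opposite sign by rank. Grin2d was closest to Grin1 (0.449) and Grin2b to Gria3 (0.229), each over 8 libraries.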

How the data were processed

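STAR 2.3.0e and the build mm9 are named in the submitters' processing notes. The authors deposited whole-number counts of reads on genes (both strands), exons, introns and junctions, and per the file headers a JTK rhythm test with its adjusted p-value and q-value. How reads were counted, and how column totals came to be equal within a table, is not given in the sources used here. The members and lists were chosen with earlier results of these data known.

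Each circadian time was a group of 2 libraries from successive cycles, numbered in accession order, so replicate numbers do not pair samples. The labels place the start of collection at CT18, whereas the earliest title reads CT22. The test was the quasi-likelihood F test of edgeR 4.0.16 with TMM scaling (R 4.3.3), over features with at least 10 reads in at least 2 libraries, with Benjamini-Hochberg adjustment over all features and a threshold of 0.05. The model held a day-night and a dusk-dawn term, tested together for a 24-h rhythm, with 5 residual degrees of freedom and delta-method errors. Intron reads were summed per gene over 135777 introns, the shortest where introns overlapped. Sense gene library sizes were also used for introns, antisense reads and junctions. For exon usage, diffSpliceDGE of edgeR was run on exons without overlap. The common coefficient of variation was 0.143 for genes, 0.188 for introns, 0.431 for antisense reads and 0.346 for junctions. CPM were computed from effective library sizes, and levels are CPM per kb of merged exons. Scripts were tested on simulated data. The oligodendrocyte score of a library is the mean over markers of log2 CPM minus the mean of the marker.

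Named were every subunit, up to 3 genes of each other list with the lowest 24-h p, the 2 subunit junctions and exons with the lowest p, the alternative exons, and the 5 genes most alike; 1 gene that the rule names is not reported here. Alternatives were DESeq2 1.42.0, other scaling, no filter, an oligodendrocyte term, the cycle as a block, each library left out, and other lengths, introns and exons.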

Additional observations from a re-analysis of the deposited data

How the results depend on the processing

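Of 792 alternatives, 680 were classed as the same. For single tests this meant the same direction and side of the threshold, and for counts, shares and ranks a value equal or close to the main one. Of 564 on a single subunit with a test, 512 kept direction and side, 51 reversed and 1 passed (Grin2c without a filter, 0.63). The 24-h differences among them are never negative and so could not reverse. The 24-h count over all genes was 98 with DESeq2, 362 without a filter and 8 on upstream exons, and ranged from 7 to 43 when each library was left out; subunits called were 1 without a filter. Day against night gave 56 with DESeq2, 137 without a filter, 34 with the oligodendrocyte term and 4 to 28 with libraries left out. Dusk against dawn gave 34 with DESeq2, 239 without a filter, 6 with the replicate block and 3 to 60 with libraries left out. The cycle comparison gave 2 without a filter, 1 with the oligodendrocyte term and 0 to 2 with libraries left out. Introns gave 21 when free of exons and 10 to 51 with libraries left out, junctions 7 with their own library sizes and 0 to 64, antisense reads 3 without a filter, and exon usage 0 to 16 (day against night) and 0 to 13 (dusk against dawn), or 1 with the shortest of overlapping exons. By the median exon 0 of 9 ranks stayed the same, and the C1 share was 22.6% on the acceptor side. Reversed day minus night differences were Grin2a with the replicate block (0.10) and on upstream exons (0.41), Grin1 on last exons (−0.073), Grin2b on upstream (−0.14) and last exons (−0.25), Gria3 with the oligodendrocyte term (−0.0072) and on upstream exons (−0.13), and Gria4 on upstream exons (−0.0499); libraries left out gave −0.60 to 0.64 for Grin2a, −0.00719 to 0.15 for Gria1 and −0.064 to 0.0795 for Gria3. Reversed dusk minus dawn differences were Grin2b without scaling (0.000503) and on upstream exons (0.59), Grin2a on upstream exons (−0.080), Grin2d on last exons (−0.0716), and Gria3 with the oligodendrocyte term (0.0679) and on last exons (0.00877); libraries left out gave −0.0592 to 0.10 for Grin1, −0.52 to 0.70 for Grin2a, −0.0888 to 0.069 for Grin2b and −0.0777 to 0.0569 for Gria3. For the second minus the first cycle, Gria4 was −0.00244 without a filter, and libraries left out gave −0.17 to 0.0172 for Grin1, −0.19 to 0.17 for Grin2d, −0.0442 to 0.20 for Gria2, −0.0517 to 0.13 for Gria3 and −0.0321 to 0.0391 for Gria4. The causes were not tested. Cycle numbers do not pair the samples, and the block called no subunit. Depth limits Grin2a, Grin2b and the shares of rare exons.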
